A study of Mus musculus with 8 samples.

Results

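The mRNA levels of 10 amino acid transporter genes were described in mouse embryonic stem cells (ESCs) that differ in the TAM domain of BAZ2A, a chromatin protein that binds RNA through this domain. The genes are *Slc3a2*, *Slc7a5*, *Slc7a6*, *Slc7a11*, *Slc7a1*, *Slc7a3*, *Slc1a4*, *Slc1a5*, *Slc38a2* and *Slc6a9*. They were chosen by symbol, with earlier results of these data known, and each had 1 entry among the 50902 genes of the expression table. The cells were E14, a mouse ESC line, grown with LIF in N2B27 medium under 2i (a pair of kinase inhibitors used to keep ESCs naive). All of them carried a piggyBac transgene for Flag- and HA-tagged BAZ2A that resists the siRNA, and all were transfected with siRNA against endogenous *Baz2a* and collected 3 days later. In ESC + F/H-BAZ2ArWT (below, WT) the transgene encodes wild-type BAZ2A, and in ESC + F/H-BAZ2ArΔTAM (below, ΔTAM) it encodes BAZ2A without the TAM domain. The lines are described as single-cell clones, so the effects of genotype and of clone cannot be told apart. RNA-seq comprised 4 libraries of each condition, and the comparison asked which mRNAs differ between the lines when the TAM domain is missing.

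Amino acid transporters of the plasma membrane differ in the amino acids they carry and in how uptake is driven. Some exchange an amino acid inside the cell for one outside, some are coupled to sodium, and many SLC7 exchangers reach the membrane only in a complex with a heavy chain, of which SLC3A2 is the common one. When amino acids run short, the kinase GCN2 phosphorylates eIF2α, which favours translation of the transcription factor ATF4, and ATF4 activates genes of amino acid synthesis and transport through composite sites in their promoters and introns. Leucine and arginine that enter the cell are bound by sensor proteins such as Sestrin2 and CASTOR1, and the Rag GTPases relay this state to mTORC1 at the lysosome. Mouse ESCs are known for their dependence on threonine.

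Reads on genes numbered from 7281271 to 7714168 per library in WT and from 6585593 to 8696304 in ΔTAM. *Baz2a* was at 10.5 ± 0.529 RPKM in WT and 18.3 ± 0.824 RPKM in ΔTAM (SD, n = 4 each). Its reads join the transgene and the remaining endogenous transcript, so they check neither the knockdown nor the label. Total *Baz2a* mRNA thus also differed between the lines, and its effect cannot be told apart from that of the missing domain. The paper reports similar BAZ2A levels in the lines by western blot. A list of 7 ESC markers (*Pou5f1*, *Sox2*, *Nanog* and others) was expressed in every library, with a summed level of 84.7 to 87.3 RPKM in WT and 72.5 to 78.2 RPKM in ΔTAM. Of 6 endoderm markers 0 reached a mean of 0.1 RPKM and *Afp* was listed at 0, but *Gata4* had 28 to 43 reads per library. Of 6 fibroblast markers likewise 0 reached that level and *Col3a1* was at 0, but *Pdgfrb*, whose RPKM is per genomic span, averaged 187 reads in WT and 189 in ΔTAM, more than *Slc7a11* or *Slc6a9*. The 6 trophoblast markers summed to between 1.35 and 1.38 RPKM in WT and between 1.39 and 1.69 RPKM in ΔTAM, and the 5 neural markers to between 0.706 and 0.827 RPKM in WT and between 0.462 and 0.550 RPKM in ΔTAM. The sums hide that genes of a list moved in both directions (means, WT to ΔTAM). *Sox2* went from 27.3 to 20.4 RPKM and *Klf4* from 11.2 to 8.51 RPKM, while *Nanog* went from 19.5 to 19.9 RPKM. *Cdx2* rose from 0.260 to 0.342 RPKM and *Eomes* fell from 0.159 to 0.118 RPKM. *Nes* fell from 0.461 to 0.232 RPKM and *Tubb3* rose from 0.184 to 0.221 RPKM. The part of these marker levels in the results on transporters was not tested. In bulk RNA, fewer cells that express a gene and less of its mRNA per cell cannot be told apart. The sources do not say that the libraries of a condition came from separate cultures, so the p-values measure the spread between these libraries, which may be technical.

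These transporter mRNAs were mostly lower in ΔTAM than in WT. Because the genes were chosen with earlier results of these data known, their counts and medians are a description. The values over all genes printed beside them, here and for the voom fit below, give scale and no independent support. All 10 genes had a lower mean in ΔTAM, and for 9 of the 10 each ΔTAM library lay below each WT library, against 18.6% of the 12660 genes that averaged 10 or more reads. The exception was *Slc38a2*, whose conditions overlapped. On the scale of log2(RPKM + 0.1), where 8 of the 10 genes reached the required mean of 0.1 RPKM, 7 fell and 0 rose with an adjusted p under 0.05 (limma with Benjamini-Hochberg adjustment over 9002 genes). Among all genes tested, 16.0% were called lower and 19.9% higher by this rule. The median log2 fold change was -0.37 over the 8 genes and 0.011 over all genes tested. Of the 8 genes, 0 reached the study's thresholds (a log2 fold change of -0.58 or lower with an unadjusted p under 0.05), which 1.47% of all genes tested passed. The thresholds were applied here to log2(RPKM + 0.1), where the pseudocount dampens low values, and not to the study's own fold changes.

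*Slc7a11* and *Slc6a9* were under this filter, which applies to RPKM per kilobase of genomic span. They were tested on the reads recovered from the RPKM values, with limma voom, in which all 10 genes were lower with an adjusted p under 0.05, against 21.8% of 12660 genes. Between 13 and 40 reads per library were counted on *Slc7a11* and between 50 and 114 on *Slc6a9*, so both passed the minimum of 10 reads in each condition. In the voom fit the median log2 fold change was -0.50 over the 10 genes and -0.0027 over all genes tested. Of the 10 genes, 2 passed the study's thresholds, namely *Slc7a11* and *Slc6a9*, against 6.63% of all genes in that fit. Closest outside was *Slc1a4*, at -0.579. Summed over the 10 genes, the reads per 1000000 reads on genes were 1984 to 1999 in the WT libraries and 1457 to 1527 in the ΔTAM libraries.

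**Figure D1:**
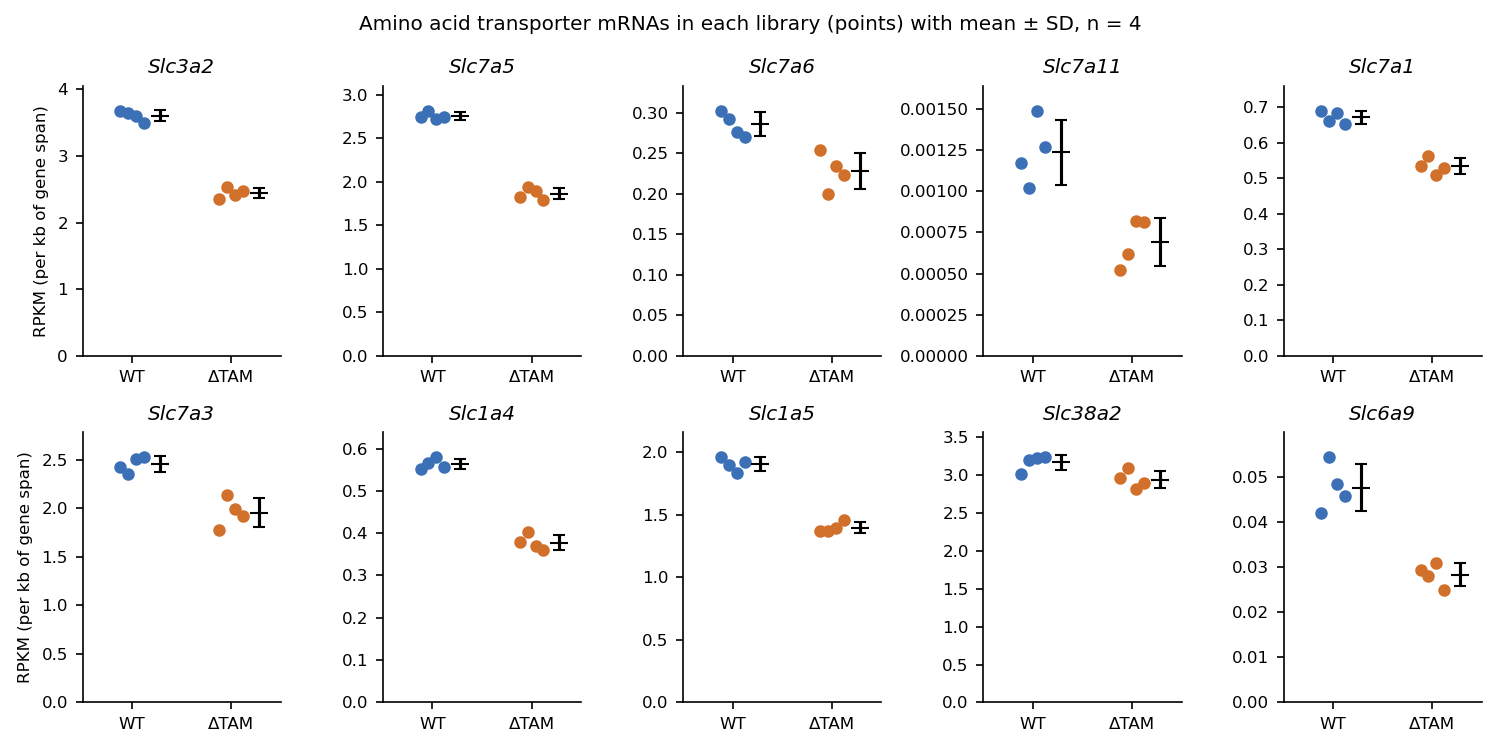
RPKM per kilobase of gene span of each of the 10 amino acid transporter genes in the 4 WT (blue) and 4 ΔTAM (orange) libraries, 1 panel per gene with its own linear axis from 0. Points are libraries and bars are mean ± SD (n = 4). The ΔTAM points lie below all WT points for 9 genes, and *Slc38a2* overlaps.

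**Figure D2:**
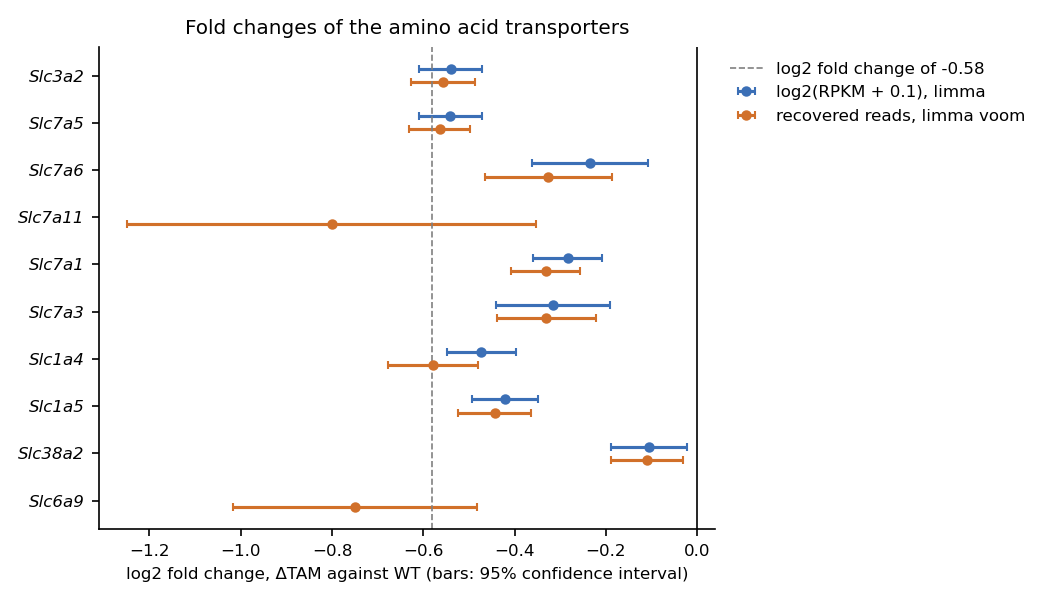
Log2 fold change of ΔTAM against WT with its 95% confidence interval for each gene, from limma on log2(RPKM + 0.1) (blue, 8 genes) and from limma voom on recovered reads (orange, 10 genes). The dashed line marks a log2 fold change of -0.58. The voom values run from -0.80 for *Slc7a11* to -0.11 for *Slc38a2*.

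The promoters of these genes were searched for TGATGNAA, the core of the composite site that ATF4 binds with a C/EBP partner, on both strands of the RefSeq windows from 250 bases before to 50 bases after the transcription start (GRCm38.p6). Windows were given for 7 of the 10 genes, and 2 of these 7, *Slc7a11* and *Slc1a4*, hold the motif, or 2 of their 11 windows. Among all 27025 symbols 4.51% have a window with a match, and of all 32851 windows 3.97% hold at least 1 match and 0.0700% hold 2 or more. The windows with a match are shown, with the matches in capitals. The *Slc7a11* window, on the minus strand of chr3:50443564-50443863, holds a match that begins 66 bases before the start and a second, reversed one that begins 47 bases before it. The *Slc1a4* window, on the minus strand of chr11:20332664-20332963, holds 1 reversed match that begins 4 bases before the start. All 3 matches read TGATGCAA in the direction of the motif. The sequences run 5′ to 3′ in the direction of each gene.
Slc7a11: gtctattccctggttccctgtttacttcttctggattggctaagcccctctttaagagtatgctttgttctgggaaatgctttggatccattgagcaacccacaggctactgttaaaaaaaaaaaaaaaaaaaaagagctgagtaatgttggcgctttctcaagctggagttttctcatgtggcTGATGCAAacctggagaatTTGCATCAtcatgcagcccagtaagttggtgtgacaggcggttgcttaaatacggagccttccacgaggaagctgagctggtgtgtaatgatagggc
Slc1a4: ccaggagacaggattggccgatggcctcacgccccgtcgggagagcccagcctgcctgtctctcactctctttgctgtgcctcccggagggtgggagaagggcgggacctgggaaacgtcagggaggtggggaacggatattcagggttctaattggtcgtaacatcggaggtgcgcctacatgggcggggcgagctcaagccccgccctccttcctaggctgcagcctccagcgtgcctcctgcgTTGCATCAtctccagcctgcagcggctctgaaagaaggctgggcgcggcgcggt
No match was found in the windows of *Slc3a2*, *Slc7a1*, *Slc7a6*, *Slc38a2* and *Slc6a9*, which says only that these letters are not in these windows. Of these genes, *Slc3a2*, *Slc7a1* and *Slc7a6* were called lower in both fits, and *Slc38a2* and *Slc6a9* in the voom fit. *Slc7a3*, *Slc7a5* and *Slc1a5* had no window. A match is a description of the sequence, and binding there was not measured.

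SLC3A2 (CD98, the 4F2 heavy chain) has no transport activity of its own and carries SLC7 light chains to the plasma membrane. *Slc3a2*, on chromosome 19 of mm10 from 8706882 to 8723369, was at 3.68, 3.64, 3.60 and 3.49 RPKM in WT replicates 1 to 4 and at 2.36, 2.54, 2.42 and 2.47 RPKM in ΔTAM replicates 1 to 4. The lowest WT library was above the highest ΔTAM library. Its mean fell by 32.1% (log2 fold change -0.54 ± 0.030 SE, limma adjusted p = 3.02e-05). Only 2.43% of all genes tested had a fold change this low or lower.

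LAT1, encoded by *Slc7a5*, is the SLC3A2 partner that brings in leucine and other large neutral amino acids in exchange for glutamine. *Slc7a5*, on chromosome 8 from 121881150 to 121907694, was at 2.74, 2.82, 2.72 and 2.75 RPKM in the WT libraries and at 1.83, 1.94, 1.90 and 1.79 RPKM in the ΔTAM libraries. The spread within each condition was small against the gap between them. *Slc7a5* fell by 32.4% (log2 fold change -0.54 ± 0.030 SE, limma adjusted p = 2.93e-05), with a 95% confidence interval of -0.61 to -0.47. The light chain and its heavy chain had the 2 largest decreases of the 8 genes in this fit.

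*Slc7a6* encodes y+LAT2, a light chain that exchanges cationic for neutral amino acids. On chromosome 8 from 106168857 to 106198706, it was at 0.303, 0.293, 0.277 and 0.270 RPKM in the WT libraries and at 0.254, 0.200, 0.234 and 0.224 RPKM in the ΔTAM libraries. The gap between the conditions was narrow here, since ΔTAM replicate 1 lay just under WT replicate 4. *Slc7a6* fell by 20.2% (log2 fold change -0.24 ± 0.055 SE, limma adjusted p = 0.0126), the smallest change among the 7 genes called. When 1 library at a time was dropped, its adjusted p ranged from 0.00683 to 0.0371.

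*Slc7a11* encodes xCT, the light chain that takes up cystine in exchange for glutamate and so feeds glutathione synthesis. It lies on chromosome 3 from 49892526 to 50443614, an annotated span of 551088 bases, and had 32, 29, 40 and 36 reads in the WT libraries and 13, 15, 24 and 26 reads in the ΔTAM libraries. The WT libraries were all above the ΔTAM libraries, although the latter include the deepest library of the series. In RPKM, the ΔTAM mean decreased by 43.9% against the WT mean, and the exact two-sided permutation test over the 8 libraries gave p = 0.0286, the smallest that 4 against 4 allows. In the voom fit *Slc7a11* fell by 0.80 on the log2 scale (standard error 0.22, adjusted p = 0.00467 from limma voom), and dropping any 1 library gave values between -0.89 and -0.68 and the adjusted p between 0.00349 and 0.0187. On log2(RPKM + 0.1) without a filter its fold change is -0.0078 and the call is lost (limma adjusted p = 0.212), since the pseudocount exceeds its RPKM by far.

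CAT1 and CAT3, encoded by *Slc7a1* and *Slc7a3*, carry arginine and lysine without a heavy chain. *Slc7a1*, on chromosome 5 from 148327410 to 148399904, was at 0.691, 0.662, 0.685 and 0.652 RPKM in the WT libraries and at 0.536, 0.563, 0.509 and 0.530 RPKM in the ΔTAM libraries. *Slc7a3*, on chromosome X from 101079210 to 101086020, was at 2.43, 2.36, 2.51 and 2.53 RPKM in the WT libraries and at 1.78, 2.14, 1.99 and 1.92 RPKM in the ΔTAM libraries. The conditions did not overlap for either gene, and the ΔTAM libraries of *Slc7a3* varied more than its WT libraries. *Slc7a1* fell by 20.5% (log2 fold change -0.28 ± 0.033 SE, limma adjusted p = 5.48e-04). *Slc7a3* fell by 20.4% (log2 fold change -0.32 ± 0.054 SE, limma adjusted p = 0.00317).

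On the scale of log2(RPKM + 0.1), the SLC1 exchangers of neutral amino acids came next in the size of their change, although *Slc1a4* changed slightly more than *Slc7a5* in the ratio of mean RPKM. *Slc1a4* encodes ASCT1, which exchanges alanine, serine, cysteine and threonine, and lies on chromosome 11 from 20302180 to 20332713. It was at 0.551, 0.565, 0.58 and 0.557 RPKM in the WT libraries and at 0.378, 0.403, 0.369 and 0.361 RPKM in the ΔTAM libraries. It fell by 32.9% (log2 fold change -0.47 ± 0.033 SE on log2(RPKM + 0.1), limma adjusted p = 6.73e-05), and by 0.58 on the log2 scale in the voom fit, where no pseudocount of 0.1 RPKM dampens low values. *Slc1a5* encodes ASCT2, a main route of glutamine uptake in dividing cells, and lies on chromosome 7 from 16781340 to 16798274. It was at 1.96, 1.90, 1.83 and 1.92 RPKM in the WT libraries and at 1.37, 1.37, 1.39 and 1.46 RPKM in the ΔTAM libraries, and fell by 26.7% (log2 fold change -0.42 ± 0.031 SE, limma adjusted p = 8.92e-05). Neither gene had a ΔTAM library within the range of its WT libraries.

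*Slc38a2* encodes SNAT2, a sodium-coupled transporter of small neutral amino acids whose gene is a known target of the amino acid response. On chromosome 15 from 96687394 to 96699698, it was at 3.02, 3.20, 3.23 and 3.24 RPKM in the WT libraries and at 2.96, 3.09, 2.82 and 2.90 RPKM in the ΔTAM libraries. WT replicate 1 lay below ΔTAM replicate 2, so the conditions overlapped. The log2 fold change was -0.11 (standard error 0.036, 95% confidence interval -0.19 to -0.023), and its adjusted p of 0.0518 from limma missed the threshold. The voom fit gave the same size of change with an adjusted p of 0.023, which rose to between 0.0515 and 0.104 without WT replicate 3 or 4 or ΔTAM replicate 3 or 4. The interval of *Slc38a2* does not reach that of *Slc7a5* or *Slc3a2*, though the difference between genes was not tested.

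*Slc6a9* encodes GLYT1, which imports glycine with sodium and chloride, and lies on chromosome 4 from 117834506 to 117875198. It had 85, 114, 96 and 96 reads in the WT libraries and 54, 50, 67 and 59 reads in the ΔTAM libraries, with no overlap. Its mean was 0.0476 ± 0.00522 RPKM in WT and 0.0283 ± 0.00252 RPKM in ΔTAM (SD, n = 4 each; exact two-sided permutation p = 0.0286), where it thus decreased by 40.6%. In the voom fit it fell by 0.75 on the log2 scale (standard error 0.13, adjusted p = 6.47e-05 from limma voom). *B4galt2* on the other strand overlaps it and had a mean of 71.8 reads against 77.6 on *Slc6a9*. Whether strand was used in counting is not given in the sources used here, so reads of the overlap may be shared.

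Levels were compared between genes as reads per kilobase per 1000000 reads on genes, with the merged exons as the length, since RPKM per span lowers genes with long introns. In WT, *Slc7a5* (132 ± 1.92) and *Slc3a2* (113 ± 2.34) were the highest of the 10 genes, followed by *Slc1a5* (51.7 ± 1.51; SD, n = 4 each). *Slc7a3*, *Slc38a2*, *Slc1a4* and *Slc7a1* followed with means from 29.6 down to 28.3, and neighbours in this group overlapped between libraries. *Slc7a6* (12.5 ± 0.626), *Slc6a9* (2.52 ± 0.272) and *Slc7a11* (0.328 ± 0.0523) were the lowest, each clear of the next. In ΔTAM, *Slc7a5* (89.1 ± 2.86) and *Slc3a2* (76.3 ± 2.11) remained the highest, and *Slc38a2* (27.3 ± 1.05) stood above *Slc7a3* (23.5 ± 1.68), *Slc7a1* (22.4 ± 0.925) and *Slc1a4* (19.6 ± 0.914). The order depends on the length used. Per kilobase of the principal transcript, *Slc3a2* (219 ± 4.55 in WT) was above *Slc7a5* (139 ± 2.02), because the merged exons of *Slc3a2* span 3529 bases and its principal transcript 1819. By that length *Slc38a2* (56.1 ± 1.82) stood above *Slc7a1* (45.5 ± 1.17), *Slc7a3* (40.8 ± 1.46) and *Slc1a4* (29.3 ± 0.609) already in WT.

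**Figure D3:**
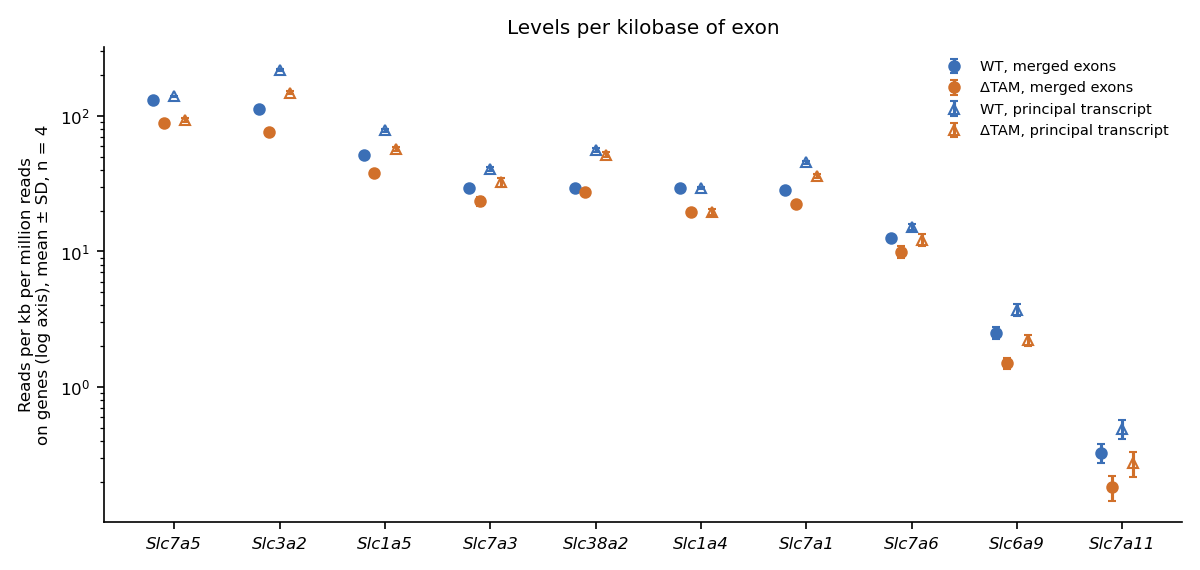
Level of each gene in WT (blue) and ΔTAM (orange), scaled to the reads on genes as in the text, on a log axis, per kilobase of merged exons (circles) or of the principal transcript (triangles). Bars are SD (n = 4). *Slc7a5* and *Slc3a2* are the highest by either length and *Slc7a11* is the lowest.

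Ratios of 2 transporters within a library do not depend on library size. The ratio of *Slc7a5* to *Slc3a2* per kilobase of merged exon was 1.17 ± 0.030 in WT and 1.17 ± 0.039 in ΔTAM (SD, n = 4 each), and its log2 value differed by -0.0060 (standard error 0.031, exact two-sided permutation p = 0.857). The ratio of *Slc7a3* to *Slc7a1* was 1.05 ± 0.047 in WT and 1.05 ± 0.073 in ΔTAM (exact permutation p = 1). The other light chain, *Slc7a6*, was at 0.111 ± 0.00352 of *Slc3a2* in WT and at 0.131 ± 0.0168 in ΔTAM, a log2 difference of 0.23 with a standard error of 0.097. The ratio of *Slc1a5* to *Slc1a4* was 1.76 ± 0.0872 in WT and 1.93 ± 0.141 in ΔTAM, a log2 difference of 0.13 with a standard error of 0.064. For both of these the exact permutation p was 0.0857, or 0.171 adjusted over the 4 ratios. The smallest exact p that 4 against 4 allows is 0.0286. A single ratio at that value would not pass 0.05 after adjustment over the 4 ratios, so this test could hardly call one. No ratio was shown to differ between the conditions, and at this number of libraries no conclusion is drawn from that.

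Within a condition the genes did not share 1 extreme library. Each WT library was the highest of the 4 for between 2 and 4 of the 10 genes. ΔTAM replicate 2 was the highest ΔTAM library for 6 genes, and ΔTAM replicate 1 was the lowest for 4.

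Of 49 further genes, among them the remaining SLC7, SLC38 and SLC36 members and mitochondrial carriers, 7 were at 0 in every library and 15 passed the filter on RPKM. Of these 15, 2 fell, 2 rose and 11 did not pass the test, beside 16.0% of all genes tested called lower and 19.9% called higher, so the counts are no result about this list. The median log2 fold change was -0.0093. *Slc38a4*, an imprinted gene for a sodium-coupled transporter of neutral amino acids, was at 0.141, 0.123, 0.132 and 0.127 RPKM in the WT libraries and at 0.657, 0.625, 0.631 and 0.632 RPKM in the ΔTAM libraries. It was 4.86-fold higher in ΔTAM (log2 fold change 1.67 ± 0.032 SE on log2(RPKM + 0.1), limma adjusted p = 4.17e-07). The size depends on the scale, with a log2 fold change of 0.53 at a pseudocount of 1 RPKM and 2.28 in the voom fit. *Slc7a7*, which encodes y+LAT1 and is the closest relative of *Slc7a6* among the light chains, fell by 38.5% (log2 fold change -0.36, limma adjusted p = 5.69e-04, and -0.71 in the voom fit, which has no such pseudocount). Its mean was 0.136 RPKM in WT and 0.0839 RPKM in ΔTAM, so it passed the filter on RPKM only through WT, where it is high, whereas its 189 to 340 reads per library passed the minimum of the voom fit in both conditions. The mitochondrial carriers *Slc25a13* for aspartate and glutamate (-0.12, adjusted p = 0.0159) and *Slc25a15* for ornithine (0.17, adjusted p = 0.0461) were the remaining calls of limma. The call of *Slc25a15* was lost in 6 of the 8 fits that dropped 1 library (limma adjusted p 0.0855 to 0.11 without WT replicate 1, 3 or 4 or ΔTAM replicate 2, 3 or 4). That of *Slc25a13* was lost with the replicate number as a block (limma adjusted p = 0.0682).

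Genes of the amino acid response moved in the same direction as the 10 transporters. Of 24 genes, 21 passed the filter, and 20 of these fell, 0 rose and 1 (*Eif2ak4*, which encodes GCN2) did not pass the test, beside 16.0% called lower among all genes. Their median log2 fold change was -0.52. This list holds genes of a kind already known to be lower in these libraries, so its direction is no independent support. *Atf4* was at 28.4, 29.3, 30.8 and 27.6 RPKM in the WT libraries and at 23.2, 26.1, 24.4 and 24.0 RPKM in the ΔTAM libraries, and fell by 0.25 on the log2 scale (adjusted p = 0.00431 from limma). *Asns*, asparagine synthetase, was at 10.7, 10.8, 10.5 and 11.1 RPKM in the WT libraries and at 6.31, 6.52, 6.60 and 6.17 RPKM in the ΔTAM libraries, and fell by 40.7% (log2 fold change -0.74, limma adjusted p = 5.59e-06). The 3 further genes with the largest changes on log2(RPKM + 0.1), among the 21 past the filter, were *Chac1*, *Stc2* and *Aldh18a1*. *Chac1*, which degrades glutathione, changed by -1.26, and *Stc2*, a secreted glycoprotein, by -0.99 (-1.47 in the voom fit). *Aldh18a1*, the first enzyme of proline synthesis, changed by -0.84. *Chac1* stood at 2.48 RPKM in WT replicate 3 against 1.93 to 2.01 RPKM in the other WT libraries, and its log2 fold change was -1.18 without that library. *Trib3*, a pseudokinase that restrains ATF4, fell by 32.5% (adjusted p = 2.50e-04). *Ddit3*, which encodes CHOP, fell by 29.4% (adjusted p = 0.043), a call lost in 7 of the 8 fits that dropped 1 library (limma adjusted p 0.053 to 0.0976), with only the fit without WT replicate 3 keeping it.

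Of 29 genes of amino acid sensing upstream of mTORC1, 28 were matched and 23 passed the filter, of which 5 fell, 3 rose and 15 did not pass the test. Beside the 16.0% of all genes called lower and 19.9% called higher, these counts are no result about the list. The median log2 fold change was -0.060. In this fit 0 passed the study's thresholds, and in the voom fit *Rragb* did. The voom fit called 10 of 28 lower and 5 higher, beside 21.8% of all its genes called lower and 21.8% called higher. Whether the list differs from all genes was not tested. *Castor1*, listed as *Gatsl3*, encodes the arginine sensor and rose from 1.13 ± 0.0481 to 1.51 ± 0.110 RPKM (SD, n = 4 each; log2 fold change 0.39, limma adjusted p = 0.00118). *Rragb*, which encodes the GTPase RagB, fell from 0.128 ± 0.00925 to 0.0790 ± 0.00801 RPKM (log2 fold change -0.35 on log2(RPKM + 0.1), limma adjusted p = 0.00176). The pseudocount dampens this value, which was -0.69 in the voom fit and in the ratio of mean RPKM. *Rragb* passed the filter on RPKM only through WT, where it is high, and fell under it without WT replicate 3. Its 103 to 219 reads per library passed the minimum of the voom fit in both conditions. Of the 5 genes that fell, *Fnip1* also passed only through WT.

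**Figure D4:**
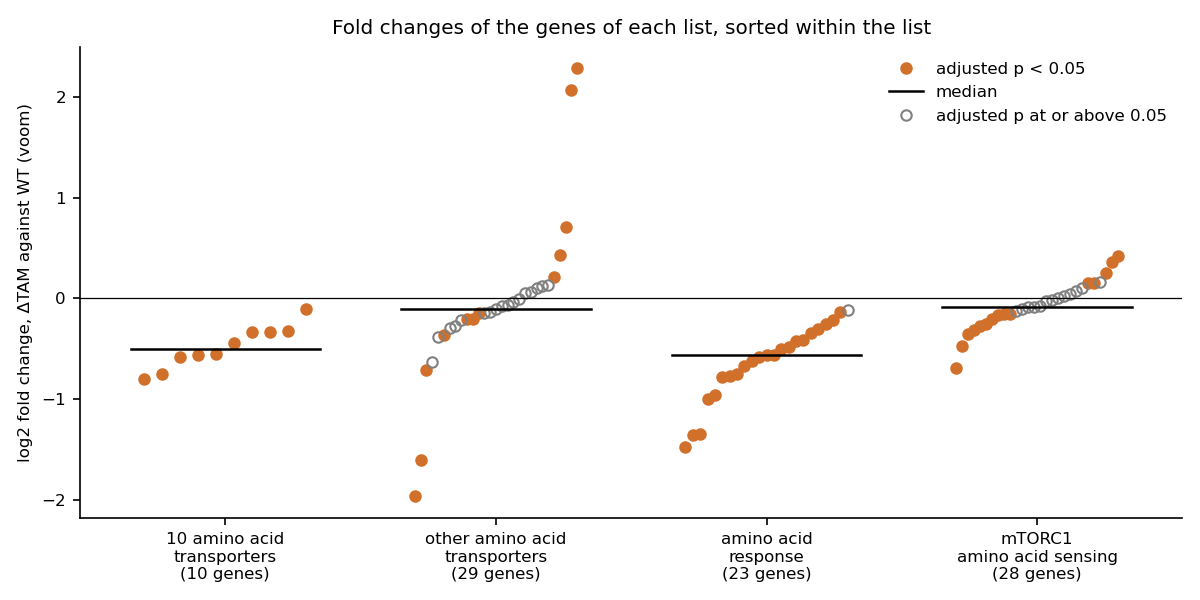
Log2 fold change of ΔTAM against WT from limma voom for the genes of 4 lists, sorted within each list. Filled points have an adjusted p under 0.05 and lines are medians. The medians are -0.50 for the 10 transporters, -0.10 for 29 other amino acid transporters, -0.56 for 23 genes of the amino acid response and -0.081 for 28 genes of mTORC1 amino acid sensing.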

How the data were processed

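RNA was sequenced from 4 WT and 4 ΔTAM libraries of E14 ESCs (stranded polyA kit). The authors removed rRNA reads with SortMeRNA, trimmed with Trimmomatic (0.36 in the submitters' processing notes), mapped reads to mm10 using STAR, derived exon coverage with their own pipeline and deposited RPKM per library, without pooling. The annotation release and the treatment of strand and multimapping reads are not given in the sources used here.

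RPKM multiplied by gene span came in whole multiples of a step for 99.5% to 99.6% of values (tolerance 0.02), taken as 1 read. These reads sum to 14.9% to 15.0% of the library total that the step implies, and the total by which the authors divided is not described in the sources used here, so read counts and the voom fit rest on the step being 1 read. Repeated entries of a symbol were reduced to 1 (386 of 51288 set aside). Fold changes were fitted with limma 3.58.1 (R 4.3.3; lmFit, eBayes with trend, no covariates) on log2(RPKM + 0.1) for genes averaging 0.1 RPKM or more, which called 3228 of 9002 genes. Voom on genes averaging 10 or more recovered reads called 5528 of 12660. Exact permutation tests and promoter searches used Python 3.11.15 with scipy 1.17.1. The scripts were tested on simulated data.

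Alternatives varied the pseudocount, filter, scaling, eBayes settings, replicate block and each library left out. The ratios within a library and the voom fits without 1 library were added after seeing the data. The members and lists were chosen with earlier results of these data known. Named genes besides the members are *Baz2a*, the 4 largest increases and decreases among other transporters, *Atf4*, *Asns*, *Ddit3*, *Trib3* and 3 more of the response list, and 2 of the mTORC1 list, each by size of change among genes with an adjusted p under 0.05 and as far as that many passed. Exon lengths are from GENCODE vM21, which has the same coordinates for 9 of the 10 members, and promoters are from RefSeq.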

Additional observations from a re-analysis of the deposited data

Results flagged for a closer look

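Of 48 groups of 4 libraries checked, 2 held a library that stood apart from the other 3 by more than Dixon's criterion, which chance meets in about 1 of 20 groups. For *Chac1*, WT replicate 3 was at 2.48 RPKM against 1.93 to 2.01 RPKM in the others. For *Trib3*, ΔTAM replicate 4 was at 1.17 RPKM against 1.05 to 1.07 RPKM. None of the 10 transporters had such a library in either condition.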

How the results depend on the processing

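The count of 7 transporters lower and 0 higher by adjusted p stayed at 5 to 10 lower and 0 higher under the alternatives run, and no transporter changed direction. Of the 8 transporters tested, *Slc38a2* alone crossed the threshold, with an adjusted p of 0.0268 under quantile normalization, 0.0441 under the filter of 1 RPKM, 0.023 with voom and 0.0298 to 0.122 with 1 library left out. Transporters past the study's thresholds numbered 1 with quantile normalization and 2 with voom, instead of 0. Their median log2 fold change was -0.20 with a pseudocount of 1 RPKM, -0.30 with no filter (10 genes), -0.42 under the filter of 1 RPKM (5 genes) and -0.50 with voom (10 genes). *Slc7a11* and *Slc6a9* rest on few reads, and without a filter the pseudocount leaves -0.0078 (adjusted p = 0.212, where voom gave 0.00467) and -0.20 (0.00801, where voom gave 6.47e-05), so the call of *Slc7a11* is lost there. The deviations of each gene from its condition mean were compared between same-numbered libraries of the conditions. These deviations correlated by only 0.0238 to 0.0624, so the numbers are not treated as pairs. With the replicate number as a block, 7 transporters were lower, the adjusted p of *Slc38a2* was 0.0984, and among the other named genes the calls of *Slc25a13* (0.0682) and *Ddit3* (0.0882) were lost. With this block 1 of the other transporters was lower, response genes called lower numbered 17 against 20, and mTORC1 genes called higher 2 against 3. The call of *Ddit3* was also lost with no filter (limma adjusted p = 0.0966). That of *Slc25a15* was lost with no filter (0.0932) and with quantile normalization (0.0582). In the deviations from the condition means, replicates 1, 2 and 4 correlated best with their own number and replicate 3 did not.

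The other transporters called lower and higher numbered 5 and 4 with no filter, 0 and 0 under the filter of 1 RPKM (0 genes tested), 4 and 1 with quantile normalization and 7 and 5 with voom, against 2 and 2. With 1 library left out, 1 to 2 were higher. Response genes called lower numbered 12 of 12 under the filter of 1 RPKM. mTORC1 genes called lower numbered 2 of 7 there and 10 of 28 with voom, against 5 of 23. Those called higher numbered 5 of 28 with voom and 2 to 5 with 1 library left out (2 in 6 of the 8 fits), against 3 of 23. Of all genes in the voom fit, 21.8% were called lower and 21.8% higher. Over all genes, 401 were lower and 591 higher under the filter of 1 RPKM, and 2763 and 2765 with voom. At the study's thresholds 241 were lower with a pseudocount of 0.01 RPKM, 15 lower and 32 higher with 1 RPKM, 33 and 46 under the filter of 1 RPKM, and 839 and 656 with voom, against 132 and 211. With 1 library left out, the log2 difference of the *Slc7a5* to *Slc3a2* ratio lay between -0.020 and 0.017 and that of *Slc7a3* to *Slc7a1* between -0.031 and 0.046, so neither has a sign. Why these counts moved was not tested beyond the number of genes that each filter leaves.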

Other observations

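Several other amino acid transporters lie under the RPKM filter and were called on recovered reads. The genes named here were chosen after their values were seen. In the voom fit, 7 of 29 other transporters fell and 5 rose, beside 21.8% of all genes called lower and 21.8% called higher, so the counts are no result about this list. *Slc6a15*, a sodium-coupled transporter of branched-chain amino acids and proline, fell by 1.96 on the log2 scale (adjusted p = 1.03e-07 from limma voom), with 12 to 94 reads per library over both conditions. *Slc1a1*, the glutamate and cysteine transporter EAAT3, fell by 1.61 (adjusted p = 8.01e-06), with 8 to 40 reads. Among the light chains, *Slc7a8* (LAT2), an SLC3A2 partner like *Slc7a5*, rose by 0.71 (adjusted p = 9.03e-07), whereas *Slc7a5* fell in the same fit by 0.56. *Slc7a9*, the light chain of the kidney cystine transporter, averaged 4 reads in WT and 17.8 in ΔTAM. It reached the minimum of 10 reads only through the ΔTAM libraries, where it is high, so its place among the 5 that rose supports nothing. Its heavy chain *Slc3a1* had at most 2 reads in a library. Of the 3 response genes under the RPKM filter, the voom fit tested *Vldlr*, which fell by 1.36 on the log2 scale (adjusted p = 1.96e-07 from limma voom), and *Atf3*, which fell by 1.002 (adjusted p = 0.000167). *Cebpb* had 3 to 9 reads per library and was not tested.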
